A study of Mus musculus with 2 samples.

Results

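The barcodes described here come from the inflamed mouse colon, are rich in the neutrophil transcripts S100a8 and S100a9 and hold little RNA of the granule proteins made early in neutrophil development. They were chosen from single-cell counts by a rule of fixed limits. A barcode was a member with at least 5% of its UMIs (unique molecular identifiers, counted RNA molecules) from S100a8 and S100a9 and at most 4 UMIs from Ngp, Ltf and Camp together. It also had no Cd3e UMI, at most 3 Epcam UMIs, at least 200 detected genes and under 20% mitochondrial UMIs. The rule found 421 cells among 14848 kept barcodes, 152 of 5721 in library 1 and 269 of 9127 in library 2. Because measured values of these 7 genes chose the cells, their levels are given as description only. The gate is called mature below as a working name, which its markers did not bear out for 74 of the cells.

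Neutrophils mature in the bone marrow, where they make and pack granule proteins in sequence, and they then leave for the blood and inflamed tissue. Ngp, Ltf (lactoferrin) and Camp (cathelicidin) encode proteins of the secondary granules, and their transcripts decline as the cell matures. Mature neutrophils are known for the chemokine receptor Cxcr2, for Csf3r, the receptor of granulocyte colony-stimulating factor, and for making Il1b and Cxcl2 in inflamed tissue.

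The study has 1 group of 2 libraries, numbered as repeats 1 and 2, from mid-colon of SPF mice. The mice were 7 weeks old and had taken 3% dextran sulfate sodium (DSS), which injures the colon lining, over 6 days. No untreated sample was used here, so no value below is an effect of DSS, and the labels give no strain and do not state that the libraries came from separate animals. The p-values of the main comparisons below thus rest on how far differences between groups of cells vary from one library to the other. That variation can be technical. Library 1 held 76622643 UMIs and library 2 held 94204110. The members had medians of 4721 and 4101 UMIs per cell, and 0 barcode sequences were shared between members of both libraries. Among all barcodes 18 sequences were.

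The label was checked against its markers first. Csf3r stood at 724 CPM (UMIs per 1000000 UMIs of the summed cells) in library 1 and 625 in library 2, against 1.96 and 11.4 in cells gated as T cells by at least 2 Cd3e UMIs. Cxcr2 stood at 1149 and 1152 CPM, and the T cell values were 1.84 and 8.74. G0s2, which encodes an inhibitor of triglyceride breakdown and is abundant in neutrophils, stood at 3664 and 2039 CPM against 10.7 and 21.2. All 3 genes were far above the T cell level in both libraries, and the T cell level serves here as the measure of free RNA. Granule UMIs were few in the members, at 1.07 and 1.46 per 10000 UMIs, and 270 of the 421 cells had none. The T cells held 0.175 and 0.383 per 10000, and the granule-rich neutrophils described below 165 and 154.

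A second set of markers went against the label for some of the cells. Fn1 (fibronectin), Vcan (versican), F13a1 (a coagulation factor subunit) and Ccr2 (a chemokine receptor) are markers of monocytes, and 56 of the 421 members had UMIs of all 4. A further 18 had 2 or 3 of them, while 313 had none and 34 had 1. Cells with at least 2 are called marked below, and they made up 24 of 152 members (15.8%) in library 1 and 50 of 269 (18.6%) in library 2. Marked cells were 4.69% of the granule-rich neutrophils and 5.87% of the T cells (1.58% in library 1 and 8.62% in library 2). Of the mononuclear phagocytes gated below, 66.0% were marked. The marked members were rich in RNA and held 33.6% and 35.7% of all member UMIs. They lay mostly near the lower S100 limit: between 5% and 10% S100 share, 16 of 28 members in library 1 and 32 of 72 in library 2 were marked. At 10% and over, 8 of 124 and 18 of 197 were. Just outside the limit, at 4% to 5%, 3 of 5 and 14 of 22 barcodes that met the other terms were marked.

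**Figure D1:**
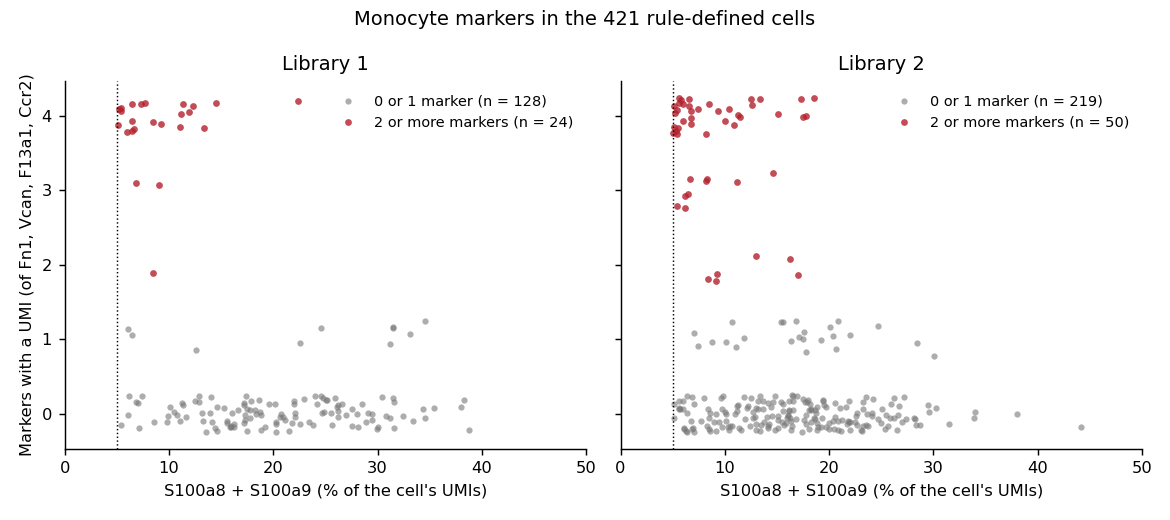
Each point is 1 of the 421 cells, with its share of UMIs from S100a8 and S100a9 (x axis, percent) and the number of the 4 monocyte markers with a UMI (y axis, points spread slightly for display), by library; the dotted line is the 5% limit. The 74 cells with 2 or more markers (red) gather at low S100 shares, and most of them have all 4.

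The marked cells differed from the others in the neutrophil genes too. Csf3r was at 137 and 119 CPM in them and at 1020 and 906 CPM in the 347 unmarked members. Cxcr2 was at 411 and 361 CPM in the marked and at 1522 and 1592 CPM in the unmarked cells. G0s2 was at 731 and 385 CPM in the marked and at 5145 and 2958 CPM in the unmarked cells. Lyz2 is a lysozyme gene of monocytes and macrophages and is also in the list of neutrophil granule proteins used below. It was at 5079 and 5432 CPM in the marked cells, as in the mononuclear phagocyte gate (4919 and 5543). In the unmarked cells Lyz2 was at 450.5 and 427 CPM. Retnlg, a resistin-like gene of neutrophils, was at 260 and 2362 CPM in the marked and at 20646 and 20990 CPM in the unmarked cells. By these markers the label described the unmarked cells, while the marked cells held genes of both kinds and are given no cell type name. Comparisons below were run for all 421 members and again with marked cells removed from both the mature and the granule-rich gates, a step added after the cells had been seen. List counts are given both ways. A fold change given once is for all members unless said otherwise, and the call on such a gene was the same without the marked cells, though its size can differ.

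Sums over the markers of other cell types were set beside those in T cells. The 8 eosinophil markers summed to 12.96 and 16.7 CPM, against 2.88 and 2.48 in T cells. They summed to 7.09 and 9.46 CPM in unmarked members and to 24.6 and 29.8 in marked ones, where 7 of the 8 had no UMI. The 6 B cell markers summed to 1.18 and 3.80 CPM, against 27.3 and 18.1 in T cells. The 5 erythroid genes summed to 0 and 0.760, against 0.115 and 0.928. The 6 plasma cell markers summed to 242 and 312 CPM, against 138 and 266 in T cells, and the 10 mast cell and basophil markers to 121 and 108, against 236 and 80.4. The 6 platelet markers summed to 4.71 and 5.32 CPM, against 23.1 and 42.5 in T cells. The 8 dendritic cell markers summed to 12.96 and 7.60, against 274 and 113. Endothelial markers (8 genes) summed to 73.1 and 9.88 CPM, against 38.8 and 66.2, and to 155 and 6.38 in marked members. For the 7 smooth muscle and pericyte markers the sums were 40.1 and 20.5, against 16.9 and 43.8. Fibroblast markers (7 genes) gave 18.9 and 71.4, against 348 and 217. Markers of T and NK cells (12 genes, among them the rule gene Cd3e) gave 84.85 and 126, against 12347 and 9102. Epithelial markers were present at 1194 and 1273 CPM over 10 genes, at 1490 and 1555 without marked cells, beside 1037 and 1066 in T cells, and far from that in epithelial cells (25985 and 27203). The 14 monocyte and macrophage markers summed to 4461 and 4976 CPM in all members and to 1284 and 1341 CPM without the marked cells, which were chosen on 4 such markers. The T cell sums were 650 and 1680 CPM.

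Members were 2.66% of library 1 (95% exact binomial interval 2.26 to 3.11) and 2.95% of library 2 (2.61 to 3.32). Their mean was 2.80% ± 0.205 (SD, n = 2). Without marked cells the shares were 2.24% and 2.40%. The granule-rich neutrophils, those with 5 or more granule UMIs, were 4.82% (4.28 to 5.41) and 7.25% (6.73 to 7.80). The intervals of the members overlap between the libraries and those of the granule-rich cells do not. They cover counting error only, and which cells survive tissue dissociation and filtering also sets such shares.

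Several inflammatory transcripts were among the 30 most abundant by UMIs, beside RNAs common to many cells. Of the latter, Malat1, a nuclear non-coding RNA, had 21453 and 24977 CPM, and Fth1, a ferritin chain, 14058 and 16521. Tmsb4x, an actin-binding peptide gene, had 12405 and 13154 CPM, and Actb, an actin gene, 8654 and 8828. These 3' counts are not divided by gene length, and the order is one of UMIs. Cxcl2, a chemokine that draws neutrophils through Cxcr2, had 16402 CPM in library 1 and 12786 in library 2. Wfdc17, a small secreted protein of myeloid cells, had 13845 and 12327 CPM, and Retnlg had 13806 and 14332. Il1b, the cytokine IL-1 beta, had 8789 and 8309 CPM, and the interferon-induced membrane protein gene Ifitm1 had 7701 and 6446. In the T cells Cxcl2 was at 133 and 520 CPM and Il1b at 115 and 511, so this measure of free RNA was higher in library 2 for both. Among the 30 most abundant genes, Saa3 and Chil3 owed their place to the marked cells: Saa3, an acute-phase protein gene, had a mean of 5192 CPM in all members, 586 in the unmarked ones and 587 in T cells. Chil3, a chitinase-like gene, had 4610 and 224 CPM in all and in unmarked members.

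**Figure D2:**
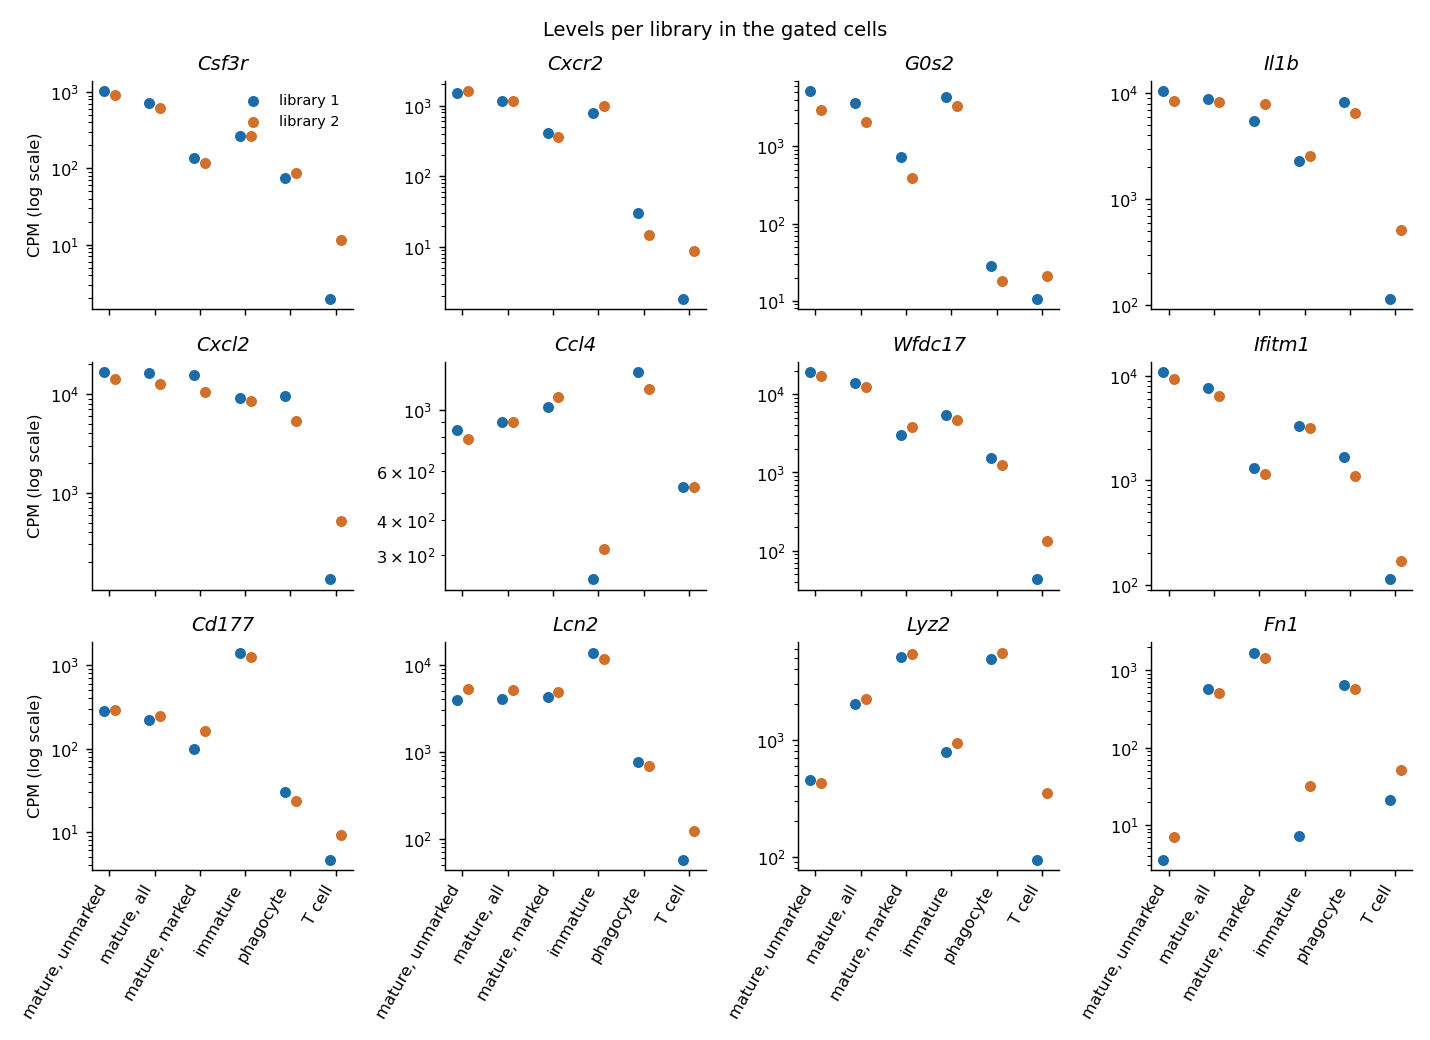
CPM on a log scale (y axis) of 12 genes in the unmarked, all and marked members, the granule-rich (immature) neutrophils, the mononuclear phagocyte gate and the T cell gate (x axis), with 1 point per library. Csf3r, Cxcr2, Wfdc17 and Ifitm1 are highest in the unmarked members in both libraries, while Lyz2 and Fn1 are highest in marked members and phagocytes.

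To ask how the granule-poor cells differ from the 938 granule-rich neutrophils of the same libraries (276 and 662 cells), counts were summed by gate and library and fitted in edgeR with the library as a block. Of 10807 genes, 651 (6.02%) were higher and 724 (6.7%) lower in the mature cells at an adjusted p of 0.05. Without the marked cells 411 (3.84%) and 535 (5%) of 10699 were. Only 222 genes were higher in both fits and 387 lower in both, and 25 genes called higher in all members were called lower without the marked cells. The 7 rule genes are left out of every count below. The other genes were read in the cells the rule had sorted, so their tests describe what varies with granule RNA. Fold changes are mature over granule-rich on a log2 scale after TMM scaling, ± SE. The granule-rich sums had TMM factors of 0.690 and 0.773, and without these factors the median of all genes moved from 0.01 to 0.41.

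Most granule protein genes outside the rule were lower in the mature cells. Of 20 tested, 15 were lower and 3 higher in the mature cells, with a median of -1.33 against 0.01 for all genes. Without marked cells 17 were lower and 0 higher, with a median of -1.31 against -0.04, and without TMM factors 13 were lower and 4 higher among all members. Cd177, a neutrophil surface protein, was at 222 and 244 CPM in the members and at 1426 and 1247 in the granule-rich cells, with no overlap. Its log2 fold change was -2.91 ± 0.14 (adjusted p 1.31e-05), and -2.53 ± 0.14 without marked cells. Lcn2, which encodes the iron-scavenger binding protein lipocalin 2, was at 4041 and 5103 CPM against 13761 and 11728. It changed by -1.89 ± 0.14 (adjusted p 8.18e-05), and by -1.78 ± 0.14 without marked cells. Itgb2l, a beta integrin-like gene, was at 4.71 and 8.36 CPM against 159 and 152, the largest fall of the list at -4.89 ± 0.24. Olfm4 (-3.48 ± 0.18), the protease inhibitor Serpinb1a (-2.52 ± 0.13), the annexin gene Anxa1 (-1.94 ± 0.14), Mmp25 (-2.30 ± 0.14) and Padi4 (-1.91 ± 0.20), the histone-citrullinating enzyme, were also lower.

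Mmp8 and Mmp9, collagenase and gelatinase genes of the secondary and tertiary granules, fell by amounts near the list median of -1.33 in all members. Mmp8 was at 1976 and 2511 CPM in members and 3757 and 4010 in granule-rich cells, a change of -1.19 ± 0.18 (adjusted p 0.00232). Mmp9 was at 738 and 641 CPM against 1450 and 1396, a change of -1.46 ± 0.14, and of -0.79 ± 0.15 without marked cells. Retnlg, lower at -1.11 ± 0.17 in all members, did not pass without marked cells (-0.46 ± 0.16, adjusted p 0.109). Chil3 and Lyz2 turned. Chil3 was called higher in all members (0.69 ± 0.19, adjusted p 0.0459) and lower without the marked cells (-3.45 ± 0.23, adjusted p 1.39e-06), where its CPM was 190 and 259 against 2623 and 1523. Lyz2 went from 0.88 ± 0.09 to -1.05 ± 0.13.

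Among receptors for chemoattractants and cytokines, higher calls outnumbered lower ones. Of 27 tested, 6 were higher, 1 lower and 20 not called in all members, and 9 were higher and 1 lower without marked cells. The list medians were 0.26 and 0.44, beside 0.01 and -0.04 for all genes. Csf3r, at 724 and 625 CPM in the members, was at 263 and 268 CPM in the granule-rich cells. Its change was 0.93 ± 0.13 (adjusted p 0.00177), rising to 1.55 ± 0.14 (1.99e-05) without marked cells. When T and epithelial sums were added to the fit, the call on Csf3r in all members was lost (adjusted p 0.201). Ccrl2, an atypical receptor that binds chemerin, was at 440 and 400 CPM against 117 and 117, a change of 1.43 ± 0.12 (adjusted p 0.000224). Hcar2, a receptor for ketone bodies and niacin, was at 167 and 129 CPM against 41.1 and 50.6, a change of 1.27 ± 0.22.

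Cxcr4, the receptor for Cxcl12 that returns ageing neutrophils to the marrow, was scarce but higher. It had 50.7 and 44.1 CPM in members against 12.6 and 16.1 CPM, a change of 1.25 ± 0.24 (adjusted p 0.00942). Cxcr2 did not pass, with 1149 and 1152 CPM against 787 and 997 (-0.05 ± 0.23, adjusted p 0.93, and 0.48 ± 0.22, 0.217, without marked cells). Tnfrsf1b, a receptor for tumour necrosis factor, changed by 1.01 ± 0.13 and Cxcr1 by 2.02 ± 0.51, the latter on 37 UMIs in the members. Ltb4r1, the receptor for leukotriene B4, was the one lower receptor at -0.78 ± 0.13 (adjusted p 0.00379). That call was lost without TMM factors (adjusted p 0.072). The decoy receptor gene Il1r2 and the formyl peptide receptor gene Fpr1 did not pass, at -0.28 ± 0.13 and -0.11 ± 0.17.

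Secreted signals moved upward where they moved. Of 24 cytokines and growth factors tested, 10 were higher and 0 lower in all members, and 6 and 0 without marked cells. Of 14 chemokines, 6 were higher and 0 lower, and without marked cells 5 of 13 and 0. DESeq2 gave 10 and 0 for the cytokines and 6 and 0 for the chemokines. The background shares of higher calls were 6.02% and 3.84%. Il1b was at 8789 and 8309 CPM against 2273 and 2577 in the granule-rich cells. Its change was 1.41 ± 0.11 (adjusted p 0.000166), and 1.70 ± 0.13 without marked cells, but adjusted p rose to 0.0977 with T and epithelial sums in the fit. Il1rn, which encodes the antagonist of the IL-1 receptor, was at 338 and 489 CPM against 91.9 and 164, a change of 1.30 ± 0.20 (adjusted p 0.00283). Both the ligand and its antagonist were thus higher in the mature cells of each library.

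The macrophage inflammatory protein gene Ccl4 was at 906 and 901 CPM against 245 and 316, a change of 1.28 ± 0.13 (adjusted p 0.000439). T cells held 528 and 526 CPM of Ccl4, more than the granule-rich cells did. Unmarked cells with 100 and over granule UMIs held 76.9 and 182 CPM. The parts of free RNA and of T cell expression in the T cell value were not tested. Ccl6 changed by 1.40 ± 0.12 and Ccl3 by 1.04 ± 0.20. Il15, a survival factor for lymphocytes, was low at 34.2 and 28.1 CPM against 3.78 and 5.86, and changed by 2.23 ± 0.35. Il23a, a subunit of interleukin 23, was at 18.9 and 13.7 CPM against 2.52 and 1.52, on 34 UMIs in the members. Cxcl2 was at 16402 and 12786 CPM against 9092 and 8462. It did not pass in all members (0.31 ± 0.14, adjusted p 0.194) and passed without marked cells (0.51 ± 0.15, adjusted p 0.0474). Tnf (126 and 157 CPM against 128 and 89.4, adjusted p 0.996) and Osm (-0.31 ± 0.14) did not pass. Several calls rested on the marked cells: Ccl9 went from 2.53 ± 0.21 to 0.28 ± 0.27, Tgfb1 from 1.12 ± 0.16 to 0.20 ± 0.22 and Ccl2 from 2.83 ± 0.33 to 1.70 ± 0.57 (adjusted p 0.0874).

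The lipid mediator genes split. Ptgs2, the inducible cyclooxygenase of prostaglandin synthesis, was at 590 and 635 CPM in members and 91.4 and 109 CPM in granule-rich cells. Its change was 2.20 ± 0.13 (adjusted p 2.94e-05), and 2.37 ± 0.15 without marked cells. Alox5, the lipoxygenase that opens leukotriene synthesis, was at 42.4 and 45.6 CPM against 96.1 and 116, a change of -1.69 ± 0.21 (adjusted p 0.00107). Its partner protein gene Alox5ap changed by -0.93 ± 0.09, and Lta4h, which makes leukotriene B4, by -1.22 ± 0.20. Of the 14 eicosanoid genes tested, 3 were higher and 4 lower in all members, and 2 and 4 without marked cells, while without TMM factors 6 were higher and 3 lower. Shares over all genes in the main fit were 6.02% higher and 6.7% lower, and 3.84% and 5% without marked cells.

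**Figure D3:**
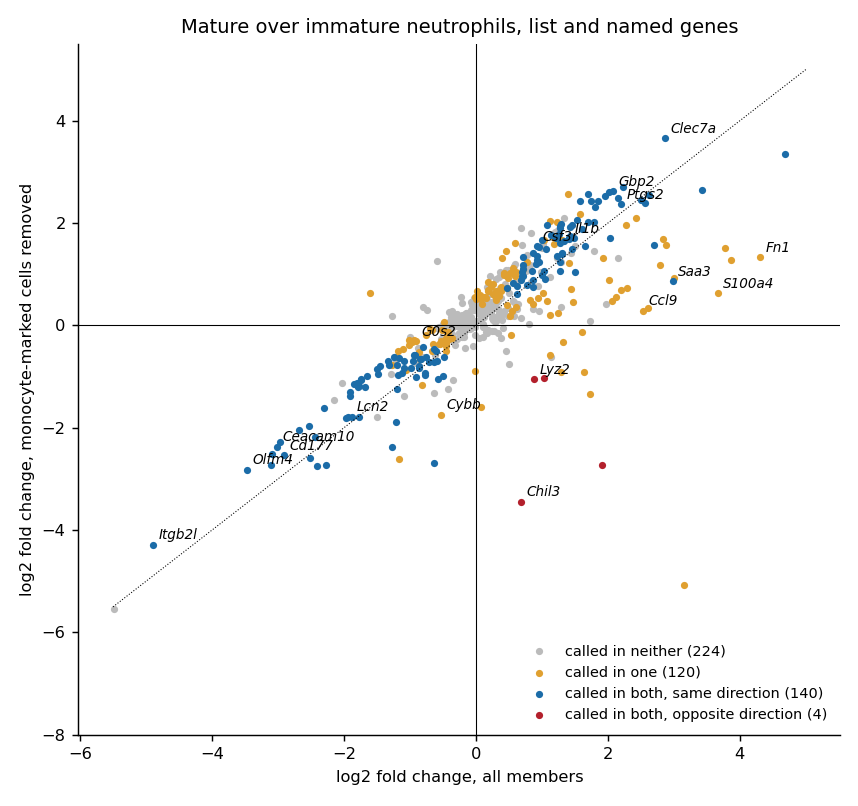
Log2 fold change, mature over granule-rich neutrophils, for 488 list, marker and named genes tested in both fits: all 421 members (x axis) and with the marked cells removed from both gates (y axis), coloured by call at an adjusted p of 0.05. Of these, 140 genes were called in both fits in the same direction, 120 in one fit and 4 in opposite directions, among them Chil3 and Lyz2.

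Interferon-stimulated genes were the list whose count changed most with the marked cells. Of 29 tested, 12 were higher and 2 lower in all members, and 19 higher and 1 lower without marked cells. The medians were 0.72 and 1.42, against 0.01 and -0.04 for all genes. Over all genes 6.02% were higher and 6.7% lower, and 3.84% and 5% without marked cells. Without the library term only 2 of the 29 were called higher. Gbp2, a guanylate-binding GTPase, was at 444 and 740 CPM in the members against 41.9 and 202 CPM in the granule-rich cells, and higher in library 2 in both gates. Its change was 2.08 ± 0.28 (adjusted p 0.00145), and 2.63 ± 0.32 without marked cells. Isg15, a ubiquitin-like protein gene, was at 349 and 382 CPM against 36.5 and 132, a change of 1.81 ± 0.31 (adjusted p 0.0053). Zbp1, a nucleic acid sensor, changed by 1.54 ± 0.18 and Oasl2 by 1.27 ± 0.14.

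Ifit1 and Rsad2 (viperin), antiviral genes, differed strongly between libraries. Ifit1 was at 20.03 and 103 CPM in the members and at 5.45 and 68.1 in the granule-rich cells. Rsad2 was at 28.3 and 147 CPM against 7.55 and 53.6. Neither passed in all members (adjusted p 0.608 and 0.147), and both passed without marked cells at 1.31 ± 0.35 and 2.05 ± 0.37. Ifitm1 was among the higher genes, at 0.72 ± 0.12 and 1.33 ± 0.13. Its neighbour in the same family, Ifitm6, was lower at 1447 and 1669 CPM against 6534 and 6233 (-2.44 ± 0.11, adjusted p 1.31e-05). Ifitm genes resemble each other and may share reads, and no label or header used here says how such reads were counted.

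The start regions of Ifit1, Rsad2, Isg15, Gbp2, Oasl2 and Zbp1 were searched for a motif known as background for interferon-responsive factors. For Oasl2 and Zbp1 no match upstream of the start was found. The 4 with a match are printed, and these were among the 5 genes that led a cluster of members described below. Each line is 90 bases on the coding strand, 5' to 3', upstream of the start in RefSeq (GRCm38.p6). Capitals mark matches to the motif GAAA, any 2 bases, GAAA, or to its reverse complement (TTTC, any 2 bases, TTTC), with overlaps allowed.
Ifit1: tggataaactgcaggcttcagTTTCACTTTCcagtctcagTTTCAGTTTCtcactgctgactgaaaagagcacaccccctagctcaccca
Rsad2: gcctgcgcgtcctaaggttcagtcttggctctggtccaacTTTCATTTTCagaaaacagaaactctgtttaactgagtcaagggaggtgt
Isg15: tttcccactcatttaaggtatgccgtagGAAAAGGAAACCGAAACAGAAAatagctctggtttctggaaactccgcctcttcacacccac
Gbp2: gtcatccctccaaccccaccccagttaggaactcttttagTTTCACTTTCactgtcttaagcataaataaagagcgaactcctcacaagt
These lie at chr19:34640764-34640853 on the plus strand, chr12:26456523-26456612 on the minus strand, chr4:156200835-156200924 on the minus strand and chr3:142620564-142620653 on the plus strand. Isg15 holds 3 overlapping matches, the last ending 56 bases before the start, and Ifit1 holds 2. Of the 24 interferon list genes with a window of 250 bases before to 50 after the start, 11 (45.8%) held a match, against 3.99% of all 27025 genes. A match is a run of letters and not a measured binding site.

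Feedback genes of NF-kappaB, the transcription factor behind much of the inflammatory response, were higher where they passed. They were 3 of 20, with 0 lower, and 5 of 20 without marked cells. Among all genes 6.02% and 3.84% were higher in the same fits. DESeq2 also gave 3 and 0. Nfkbia, the inhibitor that NF-kappaB induces against itself, was at 2434 and 1834 CPM against 1042 and 731, a change of 0.87 ± 0.10 (adjusted p 0.000822). Tnfaip3, the deubiquitinase A20, changed by 0.68 ± 0.12 and Tnfaip2 by 0.93 ± 0.20. Cxcl2, Nfkbia, Il1b and Ccl4 were searched upstream of the start for the motif GGGA, any base, TTTCC on either strand. For Il1b and Ccl4 no match was found. The start regions of Cxcl2 and Nfkbia follow, with matches in capitals.
Cxcl2: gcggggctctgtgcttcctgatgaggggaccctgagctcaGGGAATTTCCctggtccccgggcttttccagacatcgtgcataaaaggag
Nfkbia: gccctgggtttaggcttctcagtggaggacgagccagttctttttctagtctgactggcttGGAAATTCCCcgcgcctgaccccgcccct
They lie at chr5:90903762-90903851 on the plus strand and chr12:55492648-55492737 on the minus strand. The motif was found in 3 of 11 chemokine genes with a window (Cxcl1, Cxcl2 and Cxcl3), in 2 of 17 genes of the NF-kappaB list and in 0.466% of all genes.

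Immediate-early genes, which also respond to tissue dissociation, were higher for 5 of 22 in all members and 10 of 22 without marked cells, and 0 were lower in either fit. Zfp36, which destabilises cytokine mRNAs, was at 1335 and 1164 CPM against 476.5 and 529, a change of 0.90 ± 0.11 (adjusted p 0.00105). Atf3 changed by 1.46 ± 0.22 and Btg1 by 0.85 ± 0.10, while Fos did not pass (0.10 ± 0.15). The part of dissociation in these values was not tested. Among 20 transcription factors of maturation, 6 were higher and 3 lower in each fit. For both these lists the shares over all genes were 6.02% higher and 6.7% lower, and 3.84% and 5% without marked cells. Socs3, the brake on Csf3r and interleukin 6 signalling, was at 687 and 666 CPM against 209 and 291 (1.03 ± 0.16, adjusted p 0.00317). Zeb2 changed by 1.27 ± 0.12. Fosl1 was lower, at 33.0 and 31.9 CPM against 107 and 88.5 (-1.97 ± 0.19). Cebpe, the factor of secondary granule genes, was near the detection limit at 9.43 and 9.12 CPM against 14.7 and 14.97 and did not pass (-1.09 ± 0.37, adjusted p 0.0908).

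Surface genes of activation went both ways, with 6 higher and 5 lower of 26, or 7 and 3 of 27 without marked cells. Without TMM factors the split was 14 and 1, so the number of lower calls depends on the scaling. Cd274, the checkpoint ligand PD-L1, was at 156 and 213.5 CPM against 36.1 and 67.9, a change of 1.43 ± 0.17 (adjusted p 0.000748), and 1.74 ± 0.19 without marked cells. Clec7a, the beta-glucan receptor dectin-1, was at 397 and 299 CPM against 23.5 and 46.9. At 2.86 ± 0.25, and 3.66 ± 0.26 without marked cells, it was the largest rise of the list, and in the T cells it was at 8.17 and 43.5 CPM. Sirpb1c changed by 2.51 ± 0.22. Of 15 adhesion genes, 2 were higher and 9 lower, and 2 and 6 without marked cells, but 4 and 5 without TMM factors. The all-gene shares beside the activation and adhesion counts were 6.02% higher and 6.7% lower, and 3.84% and 5% without marked cells. Icam1 was at 63.6 and 120 CPM against 18.0 and 41.0 (1.23 ± 0.24, adjusted p 0.00931). Ceacam10 was at 30.6 and 25.8 CPM against 189 and 157 (-3.02 ± 0.17).

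Metabolic and oxidant genes were more often lower than higher after TMM scaling, and the split turned without it. Of 26 glycolysis and hypoxia genes 4 were higher and 12 lower, against 4 and 6 without marked cells and 9 and 5 without TMM factors. Slc2a3, a glucose transporter, was at 110 and 108 CPM against 239 and 224 (-1.50 ± 0.17, adjusted p 0.000638). Ldha, lactate dehydrogenase, changed by -1.09 ± 0.12, Pygl, which releases glucose from glycogen, by -1.20 ± 0.11 and Gapdh by -0.86 ± 0.10. Of 15 genes of the NADPH oxidase and oxidant handling 1 was higher and 6 lower, 1 and 7 without marked cells, and 4 and 3 without TMM factors. With TMM factors 6.02% of all genes were higher and 6.7% lower, and 3.84% and 5% without marked cells. Cyba, a membrane subunit of the oxidase, was at 1123 and 1134 CPM against 1510 and 1401 (-0.77 ± 0.10, adjusted p 0.00137). Cybb, its catalytic partner, passed without marked cells at -1.75 ± 0.22, with 63.8 and 158 CPM against 289 and 307.

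G0s2, a defining marker in the label, was lower in all members at -0.90 ± 0.11 (adjusted p 0.000929) and did not pass without marked cells (-0.30 ± 0.13, adjusted p 0.174). Library 1 was the higher of the libraries in both gates, at 3664 against 2039 CPM in the members and 4382 against 3376 in the granule-rich cells. In the same list the cholesterol exporter gene Abca1 was higher at 81.3 and 67.6 CPM against 17.2 and 18.7 (1.61 ± 0.18). The droplet coat gene Plin2 was higher at 0.70 ± 0.17. In all, 3 of 17 lipid genes were higher and 4 lower, and 3 of each among 18 without marked cells. Of 26 survival and death genes 4 were higher and 2 lower, and 5 and 1 without marked cells. Beside the lipid and survival counts, 6.02% of all genes were higher and 6.7% lower, and 3.84% and 5% without marked cells. Mcl1, on which neutrophil survival depends, did not pass (-0.16 ± 0.09). Nlrp3, the inflammasome sensor, was at 286 and 355 CPM against 128 and 138.5 (0.86 ± 0.14, adjusted p 0.00375). Bcl2a1b changed by 0.95 ± 0.26, but near-identical Bcl2a1 copies can share its reads and the copies Bcl2a1a and Bcl2a1d did not pass.

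In the list of S100, Ly6, stefin and neutrophil surface genes, 6 were higher and 13 lower of 25, 5 and 7 without marked cells, and 7 of each without TMM factors. Wfdc17 was at 13845 and 12327 CPM against 5415 and 4716, a change of 0.96 ± 0.08 (adjusted p 0.000224), and 1.54 ± 0.11 without marked cells. S100a6 was at 7869 and 7772 CPM against 12931 and 13800 (-1.18 ± 0.08). Prok2, the chemoattractant peptide Bv8, changed by -1.75 ± 0.15 and Ly6c2 by -1.27 ± 0.23. Ly6g, the antigen used to sort mouse neutrophils, was at 282 and 286 CPM against 312 and 383. Its call (-0.69 ± 0.14, adjusted p 0.0124) was lost without marked cells (-0.07 ± 0.15). S100a4 went from 3.66 ± 0.37 to 0.63 ± 0.66. Of 22 cell cycle genes 0 were higher and 1 lower in edgeR, and DESeq2 gave the same counts; without marked cells edgeR called 0 in either direction, with 1 at an unadjusted p under 0.05. Mki67 was at 12.96 and 22.8 CPM in members, and at 366 and 431 CPM in T cells. Of 9 chromatin genes 2 were higher and 2 lower, and without marked cells Padi4 alone passed. Beside the S100 list, cell cycle and chromatin counts, 6.02% of all genes were higher and 6.7% lower, and 3.84% and 5% without marked cells.

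The largest changes among well-measured genes show the same dependence. In all members the 10 largest rises included Fn1 (4.31 ± 0.38), Vcan (3.78 ± 0.26), S100a4 and Saa3 (2.98 ± 0.39), and Dmkn at 4.69 ± 0.62 led them. Fn1 and Vcan chose the marked cells and did not pass once these were removed. Without marked cells the leading rises were Clec7a, Gbp2, the complement gene C1qa (2.57 ± 0.42), the stress gene Gadd45b (2.52 ± 0.20), Sirpb1b, Sirpb1c, Ifi27l2a, Steap4, Mpeg1 and Ptgs2. C1qa is a macrophage transcript, and its 156 and 59.1 CPM in the unmarked members stood beside 1131 and 1016 CPM in phagocytes and 23.4 and 55.4 in T cells. The part of free or attached macrophage RNA in it was not tested. Steap4, a metalloreductase, was at 289 and 240 CPM in unmarked members, against 12.1 and 9.49 in phagocytes and 2.76 and 3.56 in T cells. The falls differed less between the fits, and Itgb2l, Olfm4, the acute-phase gene Orm1, Cd177 and Serpinb1a were among the 10 largest in both.

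Levels across the whole range of granule UMIs, in unmarked cells, were read for Il1b, Csf3r, Lcn2 and G0s2 on both sides of the limit of the rule. Il1b was at 12303 CPM in library 1 and 9530 in library 2 in cells with 0 granule UMIs. It was at 9052 and 7731 with 1, at 7196 and 6861 with 2 to 4, and at 6346 and 5016 just outside the limit with 5 to 19. With 100 and over it was at 1209 and 1407 CPM. Csf3r ran from 1236 and 1022 CPM at 0 granule UMIs to 177 and 172 CPM at 100 and over. Lcn2 ran the other way, from 3315 and 4504 CPM to 16246 and 14662. G0s2 showed no such order, with 5488 and 3069 CPM at 0 and 4237 and 3334 at 100 and over. Depth ran with the bins, from medians of 3668 and 3357 UMIs at 0 to 10032 and 7999 at 100 and over, and its part in these levels was not tested. When the limit was instead set at 0.1% of a cell's UMIs, 714 genes were higher and 717 lower.

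**Figure D4:**
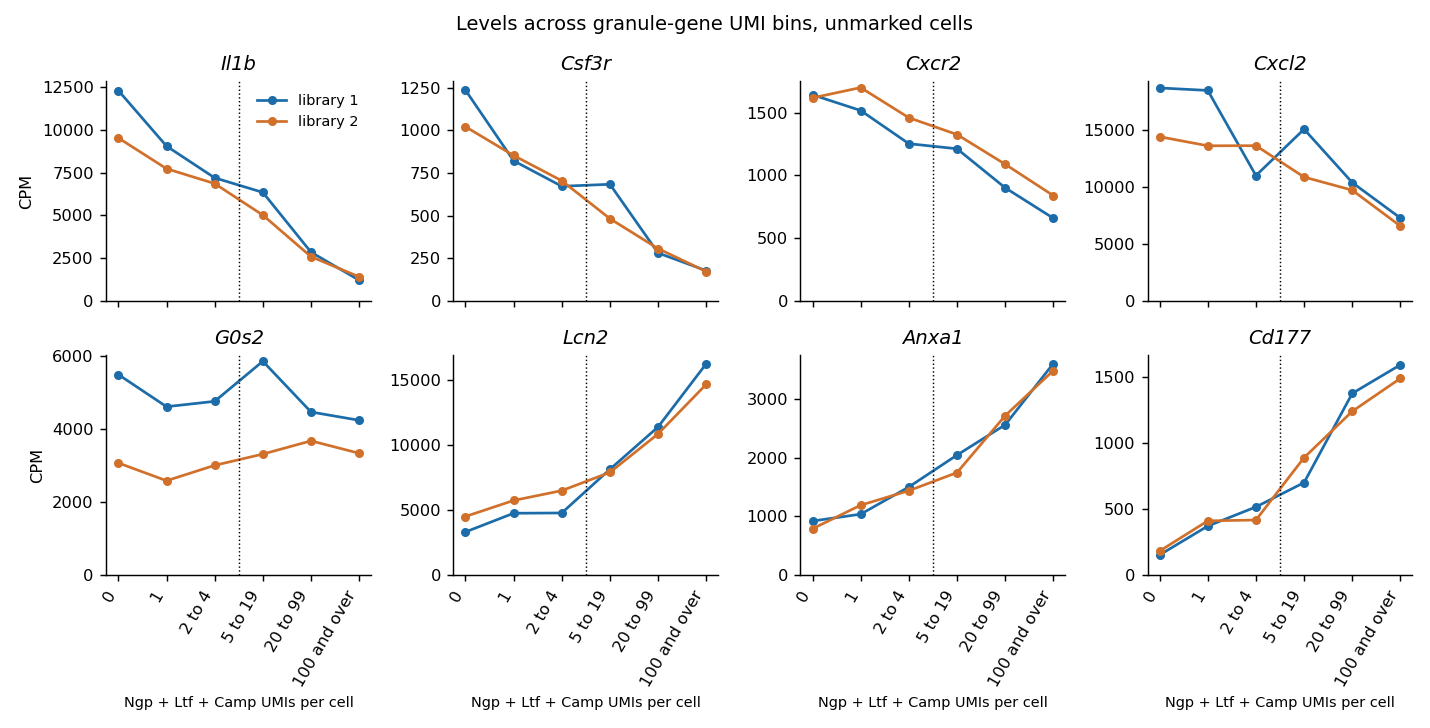
CPM (y axis, from 0) of 8 genes in unmarked cells grouped by their Ngp, Ltf and Camp UMIs (x axis), 1 line per library; the dotted line is the limit between mature and granule-rich cells. Il1b and Csf3r are highest in cells with 0 granule UMIs, Cxcr2 in cells with 0 or 1, Lcn2, Anxa1 and Cd177 in cells with the most, and G0s2 shows no order.

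The members were also clustered among themselves, with the rule genes held out, and fell into 3 clusters. Because the same genes made the clusters, their levels are description only. Cluster 1 (204 cells, 48.5% of members) was led by Stfa1, Zg16, Prok2, Stfa3 and Retnlg. Zg16 is a goblet cell gene and stood at 710 and 187 CPM in this cluster, against 82.3 and 97.7 in T cells. Retnlg was at 25139 and 24364 CPM there, against 13567 and 17142 in cluster 2, and Mmp9 was at 1297 and 1037 against 838 and 894. The stefin genes have close copies that can share reads.

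Cluster 2 (137 cells, 32.5%) was led by Ifit1, Rsad2, Isg15, Tagap and Gbp2. Isg15 was at 1113 and 858 CPM there and at 192 and 160 in cluster 1, and Gbp2 was at 1595 and 1454 against 259 and 395. Cd274 was at 494 and 341 CPM against 86.3 and 54.0, Ccl4 at 1412 and 1469 against 643 and 318, and Ccrl2 at 1090 and 830.5 against 309 and 195. Csf3r was alike, at 1188 and 897 CPM in cluster 2 and 1004 and 954 in cluster 1. Cluster 2 held 28.9% of members of library 1 (21.9 to 36.8) and 34.6% of library 2 (28.9 to 40.6).

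Cluster 3 (80 cells) was led by Fn1, Chil3, F13a1, Vcan and Ms4a6c and held 72 of the 74 marked cells. Its cells had a median of 10040 UMIs, against 4082 and 3577 in clusters 1 and 2, and a median S100 share of 7.59%. Among the highest doublet scorers of Scrublet, a tool that scores barcodes likely to hold more than one cell, were 16.2% of cluster 3, 2.94% of cluster 1 and 4.38% of cluster 2. Cluster 3 is not called a neutrophil cluster here, since monocyte markers led it. The number of clusters depended on the settings: a resolution of 0.3 gave 2 clusters, 1.0 gave 7, and each library alone gave 4.

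**Figure D5:**
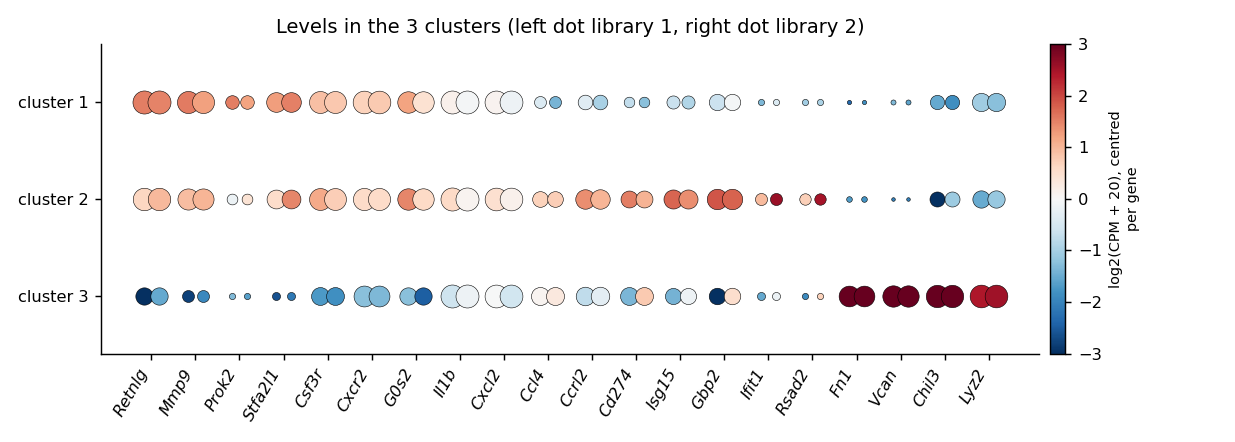
Levels of 20 genes (x axis) in the 3 clusters (y axis): colour is log2(CPM + 20) centred per gene, dot size the share of cells with a UMI, and the left and right dots are libraries 1 and 2. Retnlg and Mmp9 are highest in cluster 1, Isg15 and Gbp2 in cluster 2, and Fn1, Vcan, Chil3 and Lyz2 in cluster 3.

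The mature cells were then compared with mononuclear phagocytes (2777 cells with at least 1 Csf1r and 3 Lyz2 UMIs and an S100 share under 5%). Of 10805 genes, 2060 (19.1%) were higher and 1612 (14.9%) lower in the mature cells, and without marked cells 2356 (22%) and 2460 (23%) of 10697. These fits share the mature sums with the comparison above. Of 27 receptor genes 17 were higher and 0 lower, and of 15 adhesion genes 12 and 0; without marked cells these were 19 and 0, and 12 and 0. Without TMM factors, which shift the median of all genes from -0.09 to -0.64, receptors gave 13 and 7 and adhesion genes 8 and 2. Csf3r was at 74.2 and 87.9 CPM in phagocytes, and the change was 3.59 ± 0.14 (adjusted p 1.63e-07). Slc2a3, lower than in granule-rich cells, was higher than in phagocytes, where it had 1.49 and 2.98 CPM (5.96 ± 0.23).

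Secreted signals were called in both directions against phagocytes. Cxcl2 was at 9619 and 5368 CPM in phagocytes, below the members in each library, with a change of 1.54 ± 0.14 (adjusted p 3.43e-05), but adjusted p was 0.0609 in a fit with T and epithelial sums in the fit. Il1b was at 8341 and 6566 CPM in phagocytes and passed at 0.75 ± 0.11 (adjusted p 0.000785), but not without TMM factors (0.20, adjusted p 0.192) or with T and epithelial sums (adjusted p 0.355). Csf1, the growth factor of macrophages, was at 51.9 and 57.7 CPM in members and 3.65 and 3.99 in phagocytes (4.36 ± 0.23, adjusted p 1.16e-06). Il1rn, at 1304 and 1178 CPM, was higher in phagocytes (-1.08 ± 0.19), as were Ccl3 (-0.70 ± 0.19) and Tgfb1 (-1.09 ± 0.14). Of 14 chemokines 3 were higher in the mature cells and 6 lower, and of 24 cytokines and growth factors 6 and 7. Without marked cells the counts were 2 and 8 of 13, and 6 and 10. Over all genes 19.1% were higher and 14.9% lower, and 22% and 23% without marked cells. The higher calls of both lists were thus near the shares over all genes, and the lower calls were above them.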

How the data were processed

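Single-cell RNA was measured in 2 libraries of 1 group. The deposited matrices hold raw UMI counts for 55357 genes and each cell barcode, made with Cell Ranger, version 7.0.0 per the file headers and 8.0.0 per the submitters' processing notes, on build mm10. Capture used a 10x 3' kit, given as V3, while library reagents are given as v2, per the labels' protocols; these versions were not reconciled here. Library 1 held 6597 barcodes and library 2 held 9611; 5721 and 9127 were kept. No doublets were removed in the main results; Scrublet's highest scorers, at 0.8% per 1000 barcodes, were left out in an alternative.

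Counts of each gate were summed per library and tested with edgeR 4.0.16 (R 4.3.3), quasi-likelihood, TMM factors, low-count filter and Benjamini-Hochberg adjustment at 0.05. The fit held 6 sums of the mature, granule-rich and phagocyte gates, with the library as a block, leaving 2 residual degrees of freedom. The block was used because both gates of a number come from the same library. On simulated counts for the mature against granule-rich comparison (10807 genes), 72 of 100 genes changed 2-fold were called. Of those changed 4-fold 100 of 100 were, with 10 false calls in all. The changed genes were drawn from the more abundant ones, and all other genes had the same mean in every gate. Spread was taken from the fit itself. The simulation thus does not cover the shift seen in the TMM factors or the mixture with marked cells. Clusters came from scanpy 1.11.5 (1000 variable genes, 20 components, 15 neighbours, resolution 0.6). DESeq2 1.42.0 was an alternative. Intervals of shares are exact binomial (Clopper-Pearson, 95%) and cover counting error only.

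The members and the 18 gene lists were chosen with earlier results of these data known. Named genes were, per list, the 4 largest changes in each direction called and alike in both libraries, with other members named where a list was counted; the 10 largest rises and falls of genes at 50 CPM or more; the 30 most abundant genes; 5 leading genes per cluster; and all markers. Results on some genes are not reported here.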

Additional observations from a re-analysis of the deposited data

Results flagged for a closer look

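Barcodes that met the S100 limit but lay outside both neutrophil gates carried signal that no comparison above used. With a Cd3e UMI there were 34 in library 1 and 60 in library 2, and 9 and 16 of them had at most 4 granule UMIs. Their median depths were 11310 and 8174 UMIs, and 47.1% and 43.3% were among the highest doublet scorers. With over 3 Epcam UMIs there were 26 in library 1 and 17 in library 2, of which 4 and 3 had at most 4 granule UMIs, and 80.8% and 47.1% were among the highest doublet scorers. No untreated sample was used here to set these counts against. The part of doublets and of free RNA in them was not tested.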

How the results depend on the processing

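Without TMM factors 1747 genes were higher and 290 lower than in granule-rich cells, and 1178 and 4394 against phagocytes. Against granule-rich cells, higher calls numbered 433 with 5 gates in the fit, 430 with no replicate block and 288 at an S100 limit of 10%, where lower calls numbered 376. Removing marked cells gave 411 higher calls. Against phagocytes, lower calls numbered 780 with DESeq2, 2459 without the low-count filter, 2460 without marked cells and 2628 without marked cells and the highest doublet scorers. The share of members was 3.06% at a mitochondrial limit of 10%, 2.16% at an S100 limit of 10%, 2.30% at a granule limit of 1 and 2.32% without marked cells. With 1 library left out it ran from 2.66% to 2.95%. A resolution of 1.0 gave 7 clusters. Chil3 changed by -0.024 at an S100 limit of 10%, by -3.45 without marked cells and by -3.47 without marked cells and doublet scorers. Lyz2 changed by -1.05 and -1.08 in the last 2 settings. Without marked cells and doublet scorers Ly6g was at 0.012 and S100a4 at -1.20. Ccl4 against phagocytes was at -0.50 without TMM factors. The cause was not tested for any of these. With 1 library left out no test was possible for the named genes, which then have values only. The pairing of gates by library mattered for the interferon genes, as given above, and no replicate block left 0 higher and 5 lower of the adhesion genes. Calls lost with no replicate block included those on Bcl2a1b, Chil3, G0s2, Gbp2, Icam1, Ifi27l2a, Ifitm1, Ltb4r1, Ly6c2, Nfkbia, Oasl2, Plin2 and Stfa2. With 5 gates they included those on Alox5ap, Bcl2a1b, Ccl3, Ccl6, Chil3, Csf3r, Cxcr1, G0s2, Ifitm1, Il1b, Il1rn, Lyz2, Nfkbia, Nlrp3, Plin2, Tnfaip2 and Wfdc17. Sums of 152 and 269 cells limit the genes under about 20 CPM, such as Cxcr1 and Il23a, to few UMIs.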
